A study of Homo sapiens with 4 samples.

Results

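The 8 genes described here, APEX1, LZTR1, PLAA, ITGB1BP1, CHD2, ATAD2, HELZ and ZNF731P, were chosen from 17753 genes with reads because their transcripts carried more splice junctions in K562 cells with SF3B1 K700E than with wild-type SF3B1. For APEX1, LZTR1, PLAA and ITGB1BP1 the choice used the gene sum, which is the number of spliced reads added over all annotated introns of the gene and divided by all reads over those introns. For CHD2, ATAD2, HELZ and ZNF731P it used single introns. Choice and values come from the same 4 libraries and the same contrast, and the rule set no minimum difference, so the values below describe the genes and are not tests of them. K562 is an established line from a chronic myeloid leukaemia. Cells carried an inducible SF3B1 allele, wild type (WT, 2 libraries) or K700E (2 libraries), and both groups received doxycycline at 1 µg/ml and were harvested on day 4. RNA was taken from chromatin, freed of ribosomal and polyadenylated RNA, and sequenced as long PacBio reads. The sources used here do not give whether the lines were clones, how the allele was introduced, or whether replicates were separate cultures.

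SF3B1 is a subunit of the U2 small nuclear ribonucleoprotein and clamps the branch point region of the intron, from which the 3′ splice site is found. The K700E substitution, recurrent in myeloid neoplasms, lies in its HEAT repeats and is known for the use of cryptic 3′ splice sites upstream of the usual ones. RNA still bound to chromatin is in part unspliced, and splicing efficiency, the percentage of an intron's reads in which its junction is already made, reports how far the intron has been removed before release.

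The libraries held 459681 to 1346733 read-intron overlaps, with K700E replicate 1 the shallowest. Over the 6141 introns with at least 10 reads in every library the median difference, K700E minus WT, was -0.26 percentage points. Both K700E libraries stood above both WT libraries at 7.62% of these introns and below them at 16.5%. For gene sums with at least 10 overlaps in every library (5120 genes) the median difference was -2.45 points, with 10.2% of genes above and 20.9% below in this sense. In edgeR's quasi-likelihood test with Benjamini-Hochberg adjustment, 0.0196% of the 5093 introns tested (1 intron) were called higher in K700E, and of the 5084 genes tested 0% were. The labels call the cells epithelial. An erythroid and megakaryocytic list had 817 to 4112 overlaps per library, of which TFRC alone gave 730 to 3571. KLF1 and EPOR of that list were at 0. An epithelial list had 12 to 31, with KRT5, CLDN4 and GRHL2 at 0.

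The 8 genes held 233 annotated introns with reads, of which 37 had at least 10 reads in every library. These 37 lay in CHD2 (10), ATAD2 (20), HELZ (3) and ZNF731P (4), and no intron of the 4 genes chosen by their gene sum reached that depth. Of the 37, 9 were higher in both K700E libraries than in both WT libraries, 6 of them in ATAD2 and 1 in each of the other 3 genes, and 1 intron of ATAD2 was lower. Of the 30 member introns that entered the edgeR test 0 passed at an adjusted p of 0.05, 6 had an unadjusted p below 0.05, and DESeq2 called 0. Among the 8 gene sums 0 passed, and 4 had an unadjusted p below 0.05. As the genes were picked on this contrast, these counts carry no weight beside the background shares.

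**Figure D1:**
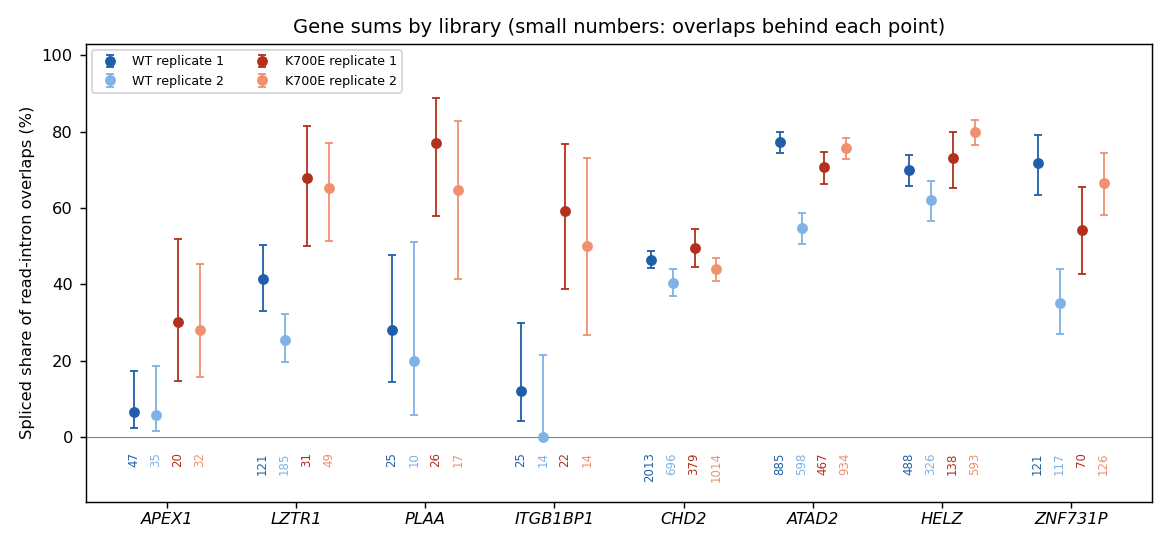
Gene sums of the 8 genes (y axis, percent of read-intron overlaps that were spliced) in the 4 libraries, with 95% Wilson intervals as bars and the number of overlaps printed under each point. APEX1, LZTR1, PLAA and ITGB1BP1 separate the groups with 10 to 185 overlaps per library. In CHD2, ATAD2 and ZNF731P the groups overlap.

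CHD2 encodes a chromodomain helicase that remodels chromatin. Its difference lay at the first intron of the gene, in the 5′ untranslated region, which joins the first and second exons of annotated coding transcripts (chr15:92900825-92901166, GRCh38, plus strand, 342 nt). In WT replicate 1, 27 of 80 reads over it were spliced, and in WT replicate 2, 18 of 33. In the K700E libraries 27 of 29 and 80 of 105 reads were spliced. Efficiency was thus 33.8% and 54.5% in WT (95% Wilson intervals 24.3 to 44.6% and 38.0 to 70.2%) and 93.1% and 76.2% in K700E (78.0 to 98.1% and 67.2 to 83.3%). Groups did not overlap, and the difference of means was 40.5 points (WT 44.1% ± 14.7, K700E 84.6% ± 11.96, SD, n = 2 each). The interval of WT replicate 2 reached into that of K700E replicate 2. With at least 29 reads in every library, it was the best covered of the introns that led the choice of a gene.

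The 5′ splice site of this intron has a second annotated partner, at chr15:92900825-92924320, which skips the second exon. The 3 annotated junctions around that exon that had spliced reads are shown because those reads divide among them, with 15 bases on each side, the downstream exon in capitals:
CHD2 first to second exon: tactacatggatcagTAAATACCTGGGCAC
CHD2 skipping the second exon: tactacatggatcagTCACTCAGCCTCTGA
CHD2 out of the second exon: cagcaatgcatcgagTCACTCAGCCTCTGA
The skipping junction was present in 11 of 23 and 7 of 8 WT reads, and in 2 of 7 and 8 of 20 K700E reads. The junction out of the second exon (chr15:92901300-92924320) was present in 11 of 23 and 0 of 8 WT reads, and in 5 of 7 and 13 of 25 K700E reads. In K700E replicates 1 and 2 the skipping junction therefore had fewer reads than the inclusion junction. In WT it had as many in replicate 1 and more in replicate 2. The denominators of 7 and 8 reads leave these shares imprecise. A read with the skipping junction lacks the junction of the first intron, although that stretch is removed. The sources used here do not give whether such reads, 11 and 7 in WT and 2 and 8 in K700E, count as unspliced there. The part of junction choice in the 40.5 points of the first intron was not tested. Another annotated junction out of the second exon, chr15:92901300-92902173, was spliced in none of its 84 and 11 WT reads and 10 and 36 K700E reads.

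Beyond its first intron CHD2 had few introns that were both spliced and well covered. Of the other 9 with at least 10 reads in every library, 6 were spliced in no library and 3 overlapped between the groups. Of the 59 CHD2 introns past the first with a read in every library, 20 had no spliced read at all, 12 were higher in both K700E libraries, 4 were lower and 23 overlapped. Such separation upward was seen at 8.27% of the 64359 introns of the series that had a read in every library and a spliced read in any, and downward at 12.6%. The intron chr15:92984501-92985497 was among the higher ones, with 3 of 12 and 1 of 8 reads spliced in WT and 4 of 6 and 10 of 19 in K700E. By the same count 13 of 31 introns of ATAD2 were higher and 1 lower, 6 of 31 of HELZ higher and 1 lower, and 1 of 6 of ZNF731P higher. The gene sum was 46.4% and 40.4% in WT (of 2013 and 696 overlaps) and 49.6% and 43.9% in K700E (of 379 and 1014). These groups overlapped, and the difference of 3.33 points ranked 1229 of 5120 genes. The first intron contributed 5.54 points to it. An intron's contribution is the difference in its spliced reads as a percentage of all overlaps of the gene. Of the 5.54 points, 2.56 came from efficiency within the first intron and 2.98 from its larger share of overlaps. The next contributions by size were -1.15 points from chr15:92974951-92978233 and -1.09 points from chr15:92955513-92956458, both in coding sequence of some transcripts. Smaller shares of overlaps made up -0.80 and -0.93 points of these. The gene AC013394.1 on the same strand spans this 5′ region, and its reads cannot be told apart from those of CHD2.

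**Figure D2:**
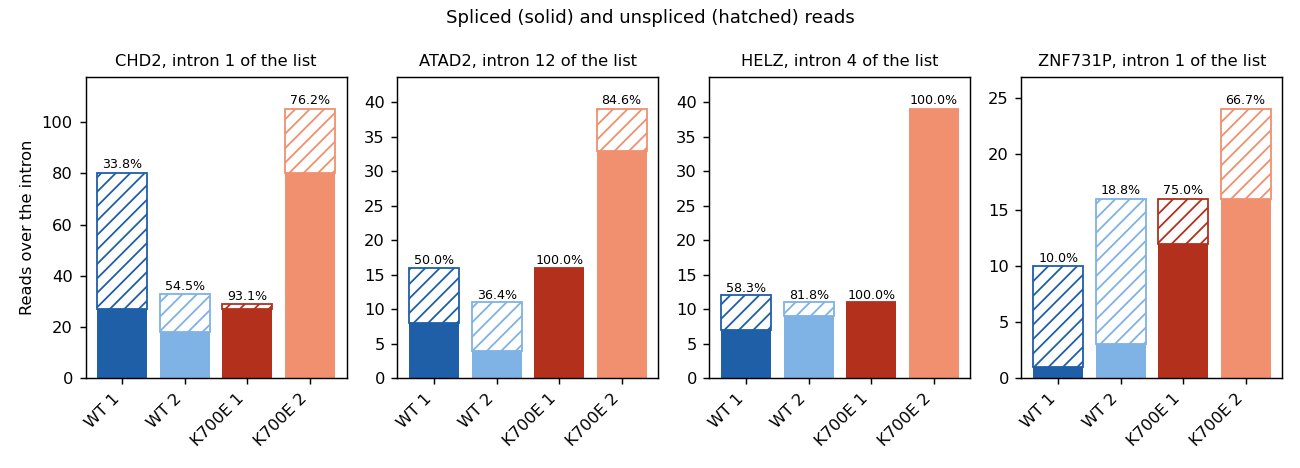
Reads over the intron with the largest difference in CHD2, ATAD2, HELZ and ZNF731P among those with at least 10 reads in every library (y axis, number of reads; solid, with the splice junction; hatched, without), one bar per library, with the efficiency printed above. In every panel the solid share of both K700E bars is larger than that of both WT bars, and the ATAD2, HELZ and ZNF731P panels rest on 10 to 16 reads in 3 of the 4 libraries.

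ATAD2 encodes an AAA+ ATPase with a bromodomain that binds acetylated histones. Its difference was spread along the 5′ part of the gene, on the minus strand of chromosome 8. At the intron of 645 nt from 123369176 to 123369820, 8 of 16 and 4 of 11 reads were spliced in WT, while all 16 reads in K700E replicate 1 and 33 of 39 in replicate 2 were. The deposited junction count of K700E replicate 1 was 17, above its 16 reads, and was set to 16. Efficiency was 50% and 36.4% in WT (intervals 28.0 to 72.0% and 15.2 to 64.6%) and 100% and 84.6% in K700E (80.6 to 100% and 70.3 to 92.8%), a difference of 49.1 points. The groups did not overlap, but the interval of WT replicate 1 reached into that of K700E replicate 2.

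Several upstream neighbours showed the same order, mostly with fewer reads. The ATAD2 intron from 123370991 to 123371235 had 4 of 13 and 2 of 10 reads spliced in WT and 10 of 17 and 23 of 38 in K700E, a difference of 34.3 points. Between these, the intron from 123370023 to 123370902 had 3 of 7 and 3 of 9 in WT and 13 of 14 and 16 of 20 in K700E. The intron from 123371836 to 123372636 had 2 of 11 and 0 of 11 reads spliced in WT and 2 of 4 and 9 of 19 in K700E, and that from 123372687 to 123380528 had 2 of 6 and 0 of 4 against all of 3 and of 9. The intron from 123371339 to 123371669, which lies among them, did not show this order. Its spliced reads were 15 of 26 and 5 of 21 in WT and 6 of 14 and 33 of 42 in K700E. These are 57.7% and 23.8% against 42.9% and 78.6%, with overlapping groups. The ATAD2 introns named so far follow each other along the transcript, so a long read that crosses them enters the counts of each.

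Farther along, the 4 other ATAD2 introns that separated upward with at least 10 reads in every library were already spliced in most reads. The intron from 123359337 to 123359576 had 36 of 41 and 19 of 26 reads spliced in WT and 20 of 21 and 44 of 50 in K700E. For the intron from 123357737 to 123359220 the values were 38 of 39 and 19 of 26 in WT and all of 20 and of 45 in K700E. The intron from 123356478 to 123357561 stood at 46 of 49 and 22 of 28 against all of 24 and of 47, and that from 123348274 to 123349284 at 50 of 56 and 26 of 37 against 34 of 36 and 41 of 44. Their differences were 11.2, 14.7, 13.8 and 14.0 points, and in each the low library was WT replicate 2.

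The next ATAD2 introns downstream pointed the other way. From 123346273 to 123346617, 37 of 40 and 25 of 34 reads were spliced in WT and 9 of 14 and 34 of 50 in K700E, a difference of -16.9 points with no overlap. The adjoining intron from 123346751 to 123347091 differed by -14.2 points and that from 123347407 to 123348182 by -10.7 points, with overlapping groups. Higher and lower introns thus followed each other along one gene. The gene sum of ATAD2 was 77.4% and 54.7% in WT (of 885 and 598 overlaps) and 70.7% and 75.8% in K700E (of 467 and 934). WT replicate 1 was the highest of the 4 libraries and WT replicate 2 the lowest, and without WT replicate 2 the difference of 7.19 points became -4.17. The intron from 123369176 contributed 2.69 points, followed by 1.91 points from 123370991 and 1.83 points from 123370023. Efficiency within the intron made up 1.36, 0.94 and 0.95 of these, and a larger share of overlaps on it 1.33, 0.97 and 0.88.

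HELZ encodes an RNA helicase of the UPF1-like family. At its intron of 20610 nt in the 5′ untranslated region (chr17:67218823-67239432, GRCh38, minus strand), 7 of 12 and 9 of 11 reads were spliced in WT, and all 11 and all 39 in K700E. Efficiency was 58.3% and 81.8% in WT (intervals 32.0 to 80.7% and 52.3 to 94.9%) against 100% in both K700E libraries (74.1 to 100% and 91.0 to 100%), a difference of 29.9 points. The groups did not overlap, yet the interval of WT replicate 2 overlapped those of both K700E libraries and that of WT replicate 1 overlapped that of K700E replicate 1. The difference was 41.7 points without WT replicate 2 and 18.2 points without WT replicate 1. An antisense transcript, AC007448.2, and the pseudogene RPL36AP48 lie within this intron on the opposite strand, and the sources used here do not give whether counting used strand. The junction that carried the difference is shown with the downstream exon in capitals:
HELZ 20610 nt intron: tgcagtgaactgcagGATTTTTGTCCCTGA

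The 2 HELZ introns upstream of it had the next largest contributions without separating the groups. At chr17:67239490-67243783, 12 of 14 and 18 of 18 reads were spliced in WT and 14 of 15 and 41 of 41 in K700E. At chr17:67243840-67245147 the values were 8 of 12 and 17 of 17 in WT and 11 of 13 and 38 of 40 in K700E. In both introns WT replicate 2 was spliced in every read. The 3 contributions to the gene sum were 5.18, 4.54 and 3.76 points. Efficiency within the intron made up 1.43, 0.053 and -0.022 of these, and a larger share of overlaps on it 3.75, 4.49 and 3.78. HELZ was the only gene chosen by an intron whose gene sums did not overlap: 70.1% and 62.0% in WT (of 488 and 326 overlaps) and 73.2% and 79.9% in K700E (of 138 and 593), a difference of 10.5 points that ranked 470 of 5120. Of the 10.5 points 7.32 came from efficiency within introns and 3.22 from a larger share of overlaps on well spliced introns.

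ZNF731P, listed as AL390728.4 in GENCODE 29, is a transcribed unprocessed pseudogene of the zinc finger family on the minus strand of chromosome 1, with 7 annotated introns. The sources used here do not give how reads that also match related genes were placed. Its first intron (chr1:247202096-247210690, 8595 nt) was spliced in 1 of 10 and 3 of 16 reads in WT and in 12 of 16 and 16 of 24 reads in K700E. Efficiency was 10.0% and 18.8% in WT (intervals 1.79 to 40.4% and 6.59 to 43.0%) and 75.0% and 66.7% in K700E (50.5 to 89.8% and 46.7 to 82.0%). The groups did not overlap and neither did their intervals, and the difference was 56.5 points.

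The same 5′ splice site is also annotated with a 3′ splice site 15 nt farther downstream in the transcript. That distance is above the 12 nt within which nearby introns were merged in an alternative count. The sources used here do not give how close sites can be for the deposited junction counts to separate them. The 30 bases after the upstream site are shown because the sequence between the sites ends in the AG of the downstream one, here in capitals:
ZNF731P chr1:247202081-247202095 and the bases after it: gtgtgatttgtccAGataatctcacctgag
The downstream site was joined in 4 of 10 and 1 of 16 reads in WT and in 2 of 15 and 4 of 24 reads in K700E. Of the junction reads to either site, the upstream site took 20.0% and 75.0% in WT and 85.7% and 80.0% in K700E, of 5, 4, 14 and 20 reads. With both sites added, 50% and 25.0% of reads were spliced in WT and 87.5% and 83.3% in K700E. With the sites added the groups still did not overlap, while the choice between them rested on 5 and 4 junction reads in WT.

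ZNF731P did not differ in this way farther along. The intron chr1:247200194-247202015 was spliced in 4 of 11 and 1 of 16 reads in WT and in 2 of 6 and 9 of 12 in K700E, and groups overlapped. At the last intron, chr1:247191013-247199360, 24 of 25 and 8 of 16 reads were spliced in WT and 6 of 9 and 11 of 11 in K700E. The gene sum was 71.9% and 35.0% in WT (of 121 and 117 overlaps) and 54.3% and 66.7% in K700E (of 70 and 126). WT replicates 1 and 2 were the highest and the lowest library. The first intron contributed 13.2 points and the last -4.69, for a difference of 7.004 points in all, which was -11.4 points without WT replicate 2. Of the -4.69 points, 0.34 came from efficiency within the intron and -5.03 from its smaller share of overlaps. For the whole gene these parts were 15.8 and -8.78 points.

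**Figure D3:**
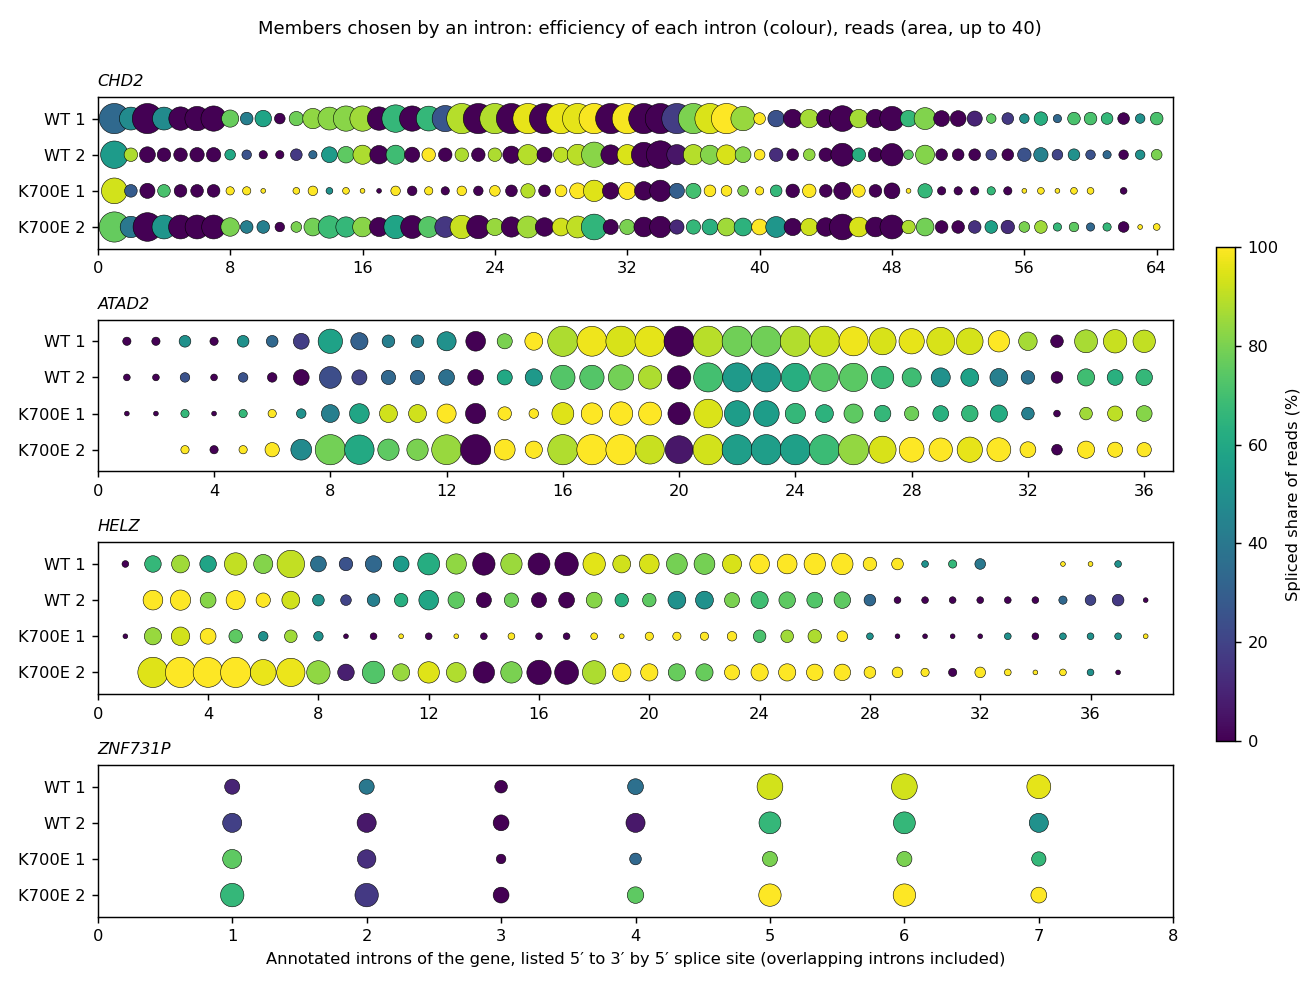
Annotated introns of CHD2, ATAD2, HELZ and ZNF731P in 5′ to 3′ order (x axis, list number, overlapping introns included) in the 4 libraries (y axis), with colour for the percentage of reads spliced and circle area for reads, drawn up to 40. Lighter circles in both K700E libraries than in both WT libraries are seen at CHD2 intron 1, ATAD2 introns 6, 7 and 9 to 12, HELZ intron 4 and ZNF731P intron 1, and on few reads at others such as CHD2 introns 41 and 56 to 58.

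The 4 genes chosen by their gene sum had larger differences in gene sum on far fewer reads. Because a read that crosses several introns is counted at each of them, the reads over the most covered intron set a lower limit on the number of separate reads. That limit was 2 and 3 reads in K700E for APEX1, 5 and 5 for LZTR1, 3 and 3 for PLAA and 2 and 2 for ITGB1BP1. In WT it was 8 and 4, 8 and 12, 4 and 2, and 2 and 2 for the same genes. The Wilson intervals on these sums treat overlaps as independent and are too narrow to that extent.

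**Figure D4:**
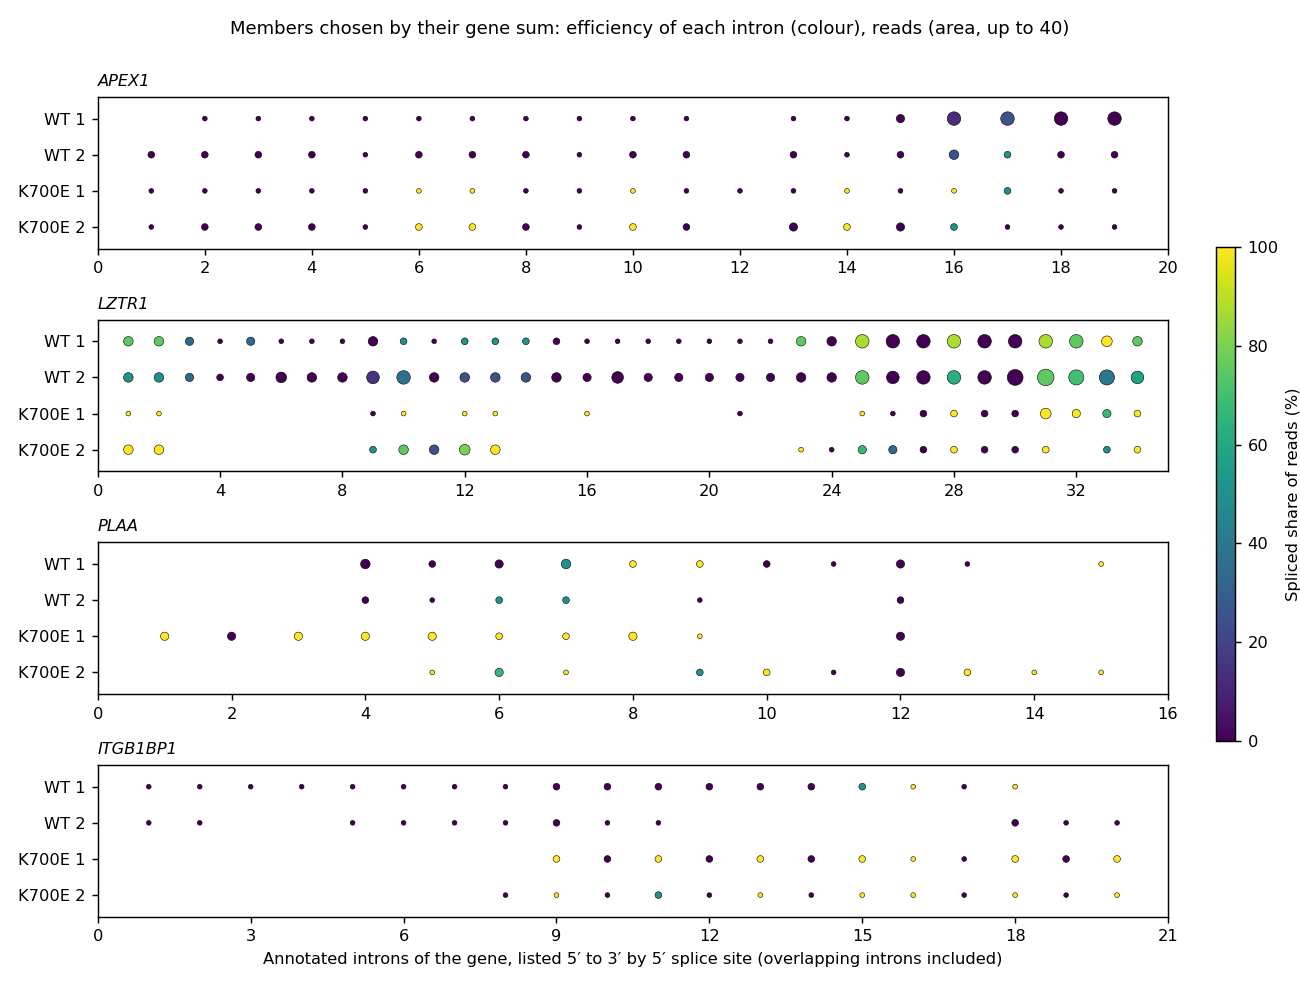
Annotated introns of APEX1, LZTR1, PLAA and ITGB1BP1 in 5′ to 3′ order (x axis, list number, overlapping introns included) in the 4 libraries (y axis), with colour for the percentage of reads spliced and circle area for reads, drawn up to 40. Most circles stand for 1 to 3 reads, and missing circles mark introns without a read in that library.

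APEX1 encodes the apurinic/apyrimidinic endonuclease of base excision repair. Of its read-intron overlaps 3 of 47 and 2 of 35 were spliced in WT and 6 of 20 and 9 of 32 in K700E, which gives 6.38% and 5.71% against 30.0% and 28.1%. The groups did not overlap, and the difference of 23.0 points ranked 63 of 5120. In APEX1 5 introns contributed upward. Of these, 3 share the 3′ splice site at 20455577 on chromosome 14 and have 5′ splice sites at 20455390, 20455395 and 20455402, in the 5′ untranslated region. Each of the 3 had 0 of 1 and 0 of 2 reads spliced in WT and 1 of 1 and 2 of 2 in K700E, and each contributed 5.62 points, 16.9 of the 23.0 together. Their 5′ splice sites lie within 12 nt and their counts are equal, so each of them may count the same 3 reads. They are shown because together they contributed most of the difference, with the downstream exon in capitals:
APEX1 chr14:20455390-20455577: gggcagatctcgcgaGCAACGCGGTAAAAA
APEX1 chr14:20455395-20455577: gatctcgcgagtaggGCAACGCGGTAAAAA
APEX1 chr14:20455402-20455577: cgagtagggtacaagGCAACGCGGTAAAAA
With introns within 12 nt at both ends counted once, which merged these 3 and also a pair without spliced reads, the difference was 14.5 points. The next intron of the gene, chr14:20455704-20455913, had 0 of 1 and 0 of 1 reads spliced in WT and 1 of 1 and 2 of 2 in K700E, and also contributed 5.62 points. The best covered one, chr14:20456102-20456667, had 1 of 8 and 1 of 4 reads spliced in WT and 1 of 1 and 1 of 2 in K700E. On the 4 introns left when only the most used of overlapping introns was kept, 3 of 18 and 2 of 9 overlaps were spliced in WT and 4 of 5 and 5 of 7 in K700E. Without overlapping introns the difference was 56.3 points.

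PLAA and LZTR1 both act in ubiquitin pathways. PLAA is a ubiquitin-binding adaptor of the segregase VCP. Its overlaps were spliced in 7 of 25 and 2 of 10 cases in WT and in 20 of 26 and 11 of 17 in K700E, or 28.0% and 20.0% against 76.9% and 64.7%. Again the K700E libraries were the higher pair, and the difference of 46.8 points ranked 4 of 5120. The intron chr9:26926561-26928099 led with 0 of 2 and 0 of 1 reads spliced in WT, 3 of 3 and 1 of 1 in K700E, and 8.71 points. Next came chr9:26917166-26919309 and chr9:26913948-26917096, at 5.88 points each, with 0 of 2 and 0 of 1 reads spliced in WT replicate 1, none in WT replicate 2, and 2 of 2 each in K700E replicate 2 alone. The leading junctions are shown to name what those few reads joined, with the downstream exon in capitals:
PLAA chr9:26926561-26928099: agaggactttttcagGGCATGAAGACTGTG
PLAA chr9:26917166-26919309: cagatccatttacagGTGGTGGTCGGTATG
The K700E libraries read different parts of PLAA: the first 4 listed introns had reads of K700E replicate 1 and none of replicate 2, and of 15 introns 5 had a read in every library. Over those 5 the difference was 34.6 points, from 4 of 14 and 2 of 8 overlaps in WT to 8 of 11 and 5 of 10 in K700E.

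LZTR1 is an adaptor of a CUL3 ubiquitin ligase for RAS family proteins. Its overlaps were spliced in 50 of 121 and 47 of 185 cases in WT and in 21 of 31 and 32 of 49 in K700E. These are 41.3% and 25.4% against 67.7% and 65.3%, with no overlap of groups and a difference of 33.2 points that ranked 17 of 5120. Here the distribution of reads over introns moved with the sum: 19.5 points came from efficiency within introns and 13.6 from the share of overlaps on each intron. In LZTR1 13 introns had no K700E read, and in WT they held 19 and 47 overlaps, of which 3 and 2 were spliced. Over the 15 introns read in every library the difference was 27.4 points. The largest contributions were 5.01 points each from chr22:20988873-20989624 and chr22:20989683-20990385 and 4.78 points from chr22:20995873-20995962. The second of these had 1 of 2 and 1 of 4 reads spliced in WT and 1 of 1 and 4 of 4 in K700E, and the last had 7 of 8 and 9 of 12 in WT and 5 of 5 and 2 of 2 in K700E. Its junction, in coding sequence of some transcripts, is shown with the downstream exon in capitals:
LZTR1 chr22:20995873-20995962: ggccgcccgctccagCTACTTTGAAGCCAT
AC002470.2, an annotated non-coding gene on the same strand, spans most of LZTR1, and reads of both cannot be told apart.

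ITGB1BP1 encodes a protein that binds the cytoplasmic tail of integrin beta 1 and the cerebral cavernous malformation protein KRIT1. Its overlaps were spliced in 3 of 25 and 0 of 14 cases in WT and in 13 of 22 and 7 of 14 in K700E. Sums in K700E were thus 59.1% and 50%, while those of WT replicates 1 and 2 were 12% and 0%. If overlaps were independent, 0 of 14 would allow a share of up to 21.4% in WT replicate 2. The most covered intron had 2 reads in that library, so the 14 overlaps may come from fewer separate reads. The true limit may therefore lie higher. Both K700E sums lay above both WT sums, and the difference of 48.5 points ranked 2 of 5120. In ITGB1BP1 7 introns contributed upward and 0 downward. The largest contributions were 8.12 points each from 3 consecutive introns, chr2:9420101-9422478, chr2:9418733-9419989 and chr2:9414257-9418625. The last listed intron, chr2:9406906-9407448, contributed as much. Spliced reads over the 3 consecutive introns were 0 of 2 each in WT replicate 1 and 2 of 2 each in K700E replicate 1. In K700E replicate 2 they were 1 of 1, 1 of 2 and 1 of 1. WT replicate 2 had 0 of 2 and 0 of 1 reads spliced at the first pair and none at the last. The tables do not name reads, so whether the same reads crossed all 3 introns was not tested. The first 2 junctions are shown because they meet at 1 exon, the downstream exon in capitals:
ITGB1BP1 chr2:9420101-9422478: aacgggccttgaaagGTGCGTAGTTTCTCT
ITGB1BP1 chr2:9418733-9419989: gtgttcaattctataGGGATCTTCTCTGGA
Only 4 of the 20 ITGB1BP1 introns had a read in every library. Over those 4, 1 of 7 and 0 of 6 overlaps were spliced in WT and 6 of 8 and 3 of 5 in K700E.

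**Figure D5:**
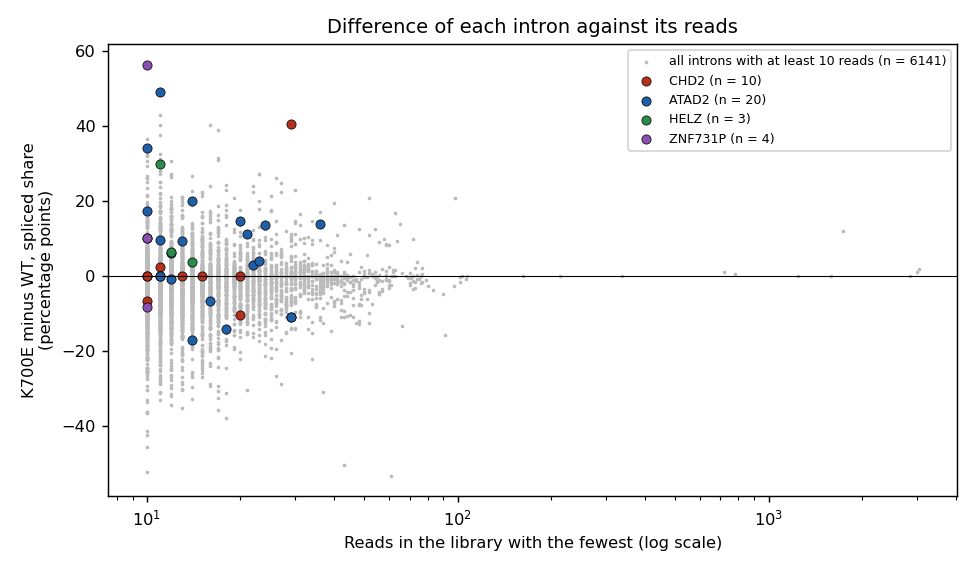
Difference in efficiency, K700E minus WT (y axis, percentage points), against the reads in the library with the fewest (x axis, log scale), for the 6141 introns with at least 10 reads in every library (grey) and the 37 of CHD2, ATAD2, HELZ and ZNF731P (colour). The CHD2 first intron stands at 29 reads and 40.5 points, while the introns with the largest difference in ATAD2, HELZ and ZNF731P stand at 10 to 11 reads, where grey points also spread widely.

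Coverage of the genes, in overlaps per 1000000 overlaps of the library, was described because the gene sums depend on which introns were read. In bulk RNA fewer cells with a transcript and less of it per cell cannot be told apart. LZTR1 had 89.8 and 156 in WT and 67.4 and 53.9 in K700E (log2 ratio of means -1.02). ATAD2 had 657 and 505 in WT and 1016 and 1027 in K700E (log2 ratio 0.81), and ZNF731P 89.8 and 98.7 against 152 and 139 (log2 ratio 0.62). PLAA had 18.6 and 8.44 in WT against 56.6 and 18.7 in K700E. Its log2 ratio of 1.48 was 0.47 without K700E replicate 1. ITGB1BP1 had 18.6 and 11.8 in WT against 47.9 and 15.4 in K700E, and its log2 ratio of 1.06 was 0.019 without that library. APEX1 (log2 ratio 0.29, and -0.023 with TMM scaling), HELZ (0.58) and CHD2 (-0.10) completed the set. For HELZ and CHD2 the sign turned when 1 library was left out. The part of coverage in the splicing differences was not tested.

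Genes that work with the members were read from lists by role. In edgeR's test 0 of all 5084 genes tested passed in either direction, and so 0 of these. The members were picked on this contrast and the listed genes were not. Of 6 measured base excision repair genes 0 stood higher in both K700E libraries and 0 lower, with a median difference of -8.65 points, against 23.0 points for APEX1. Of 8 other chromodomain helicases 0 stood higher and 5 lower (CHD1L, CHD4, CHD7, CHD8 and CHD9). The median of the 8 was -13.6 points, against 3.33 points for CHD2, whose groups overlapped. CHD3 differed by 15.0 points and CHD1 by 0.49, also with overlapping groups. Of 11 VCP genes 1 stood higher, DERL1, and 1 lower, VCP itself (median -3.66). Integrin and KRIT1 partners had 1 of 7 higher, ITGA5, and 2 lower, TLN1 and PDCD10 (median -4.54). Bromodomain readers had 2 of 10 higher, BRD7 and TRIM28, and 3 lower (median -0.58), and ATAD2B, the paralogue of ATAD2, differed by 1.76 points. Among 9 UPF1-like helicases and partners 0 stood higher and 3 lower (median -4.54). Over all genes 10.2% stood higher and 20.9% lower.

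By distance over the 4 gene sums, among 1934 genes with at least 50 overlaps in every library, the gene nearest to APEX1 was SMIM7 (12.9 points away), with WT sums of 9.68% and 15.3% and K700E sums of 22.5% and 25.3%. SET was nearest to both LZTR1 (15.1 points) and PLAA (31.0 points), with WT sums of 52.6% and 34.8% and K700E sums of 65.5% and 62.7%. UBE2Q2P1 was nearest to ITGB1BP1, at 36.4 points. The closest matches were HSPA5 to ATAD2 (3.73 points) and VDAC3 to CHD2 (3.83 points), followed by NBPF14 to HELZ (6.60 points) and AFF4 to ZNF731P (12.2 points). HSPA5 shared with ATAD2 a low WT replicate 2, at 54.8% against 75.4% in WT replicate 1. PLAA and ITGB1BP1 were chosen on these same sums and had as few as 10 and 14 overlaps in a library. Genes covered as thinly were not in the pool. The distances of these 2 genes therefore follow in part from the choice and carry no weight.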

How the data were processed

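Per the labels' protocols, chromatin RNA was ligated to a 3′ adapter, copied with template switching and amplified by PCR. Tools named in the submitters' processing notes are cutadapt and minimap2, and the build is hg38. The sources used here do not give the rule that assigned reads to introns. For each library the authors deposited, per annotated intron, a count of reads over it and a count of its junction reads, not normalized, and their ratio (CoSE), which was only checked against the counts. No molecular identifiers are mentioned, so intervals and limits cover counting error only. The deposited positions of RNA 3′ ends were not used, as their rows carry no gene or intron name. Rows were placed on GENCODE 29 introns (GRCh38) by strand, start, transcript and intron number, and 87.3 to 87.6% of rows found one. Each intron was counted once, and junction counts above the reads (2.23 to 4.16% of rows) were set to the reads. Sequences came from GENCODE 29 transcripts.

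Spliced and unspliced counts were tested as paired columns with edgeR 4.0.16 in R 4.3.3 (quasi-likelihood, false discovery rate 0.05, at least 10 reads in every library), with dispersion 0 for introns and estimated for genes, and with DESeq2 1.42.0 as an alternative. Both fits were tested on simulated data. P-values measure the spread between these libraries, which may be technical. The members, lists and tests were chosen with earlier results of these data known. Named were all 8 genes, the 3 introns with the largest contribution to each gene sum, and the nearest gene by gene sum. Also named, for genes chosen by an intron, was the intron with the largest rise among those with at least 10 reads in every library. Other introns were named after their values were seen. The list of genes that work with LZTR1 is not reported here.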

Additional observations from a re-analysis of the deposited data

How the results depend on the processing

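All 8 gene sums kept their direction under the alternatives that leave out no library. So did the intron with the largest difference, among those with at least 10 reads in every library, of CHD2, ATAD2, HELZ and ZNF731P, for which pooling the reads of a group was the only such setting. The gene sum difference of APEX1 (23.0 points) was 56.3 when the most used of overlapping introns alone was kept, 35.5 over every deposited row, 14.5 with introns within 12 nt counted once and 25.0 over introns read in every library. That of PLAA (46.8) was 63.1 with the most used introns, 57.8 over every row and 34.6 over introns read in every library, and that of ITGB1BP1 (48.5) was 80.1, 64.6 and 60.4. That of CHD2 (3.33) was 9.42 over introns with at least 10 reads, which could not be formed for the 4 genes chosen by their sum, 7.09 with the most used introns and 5.90 over every row. That of ATAD2 (7.19) was 2.53 over introns with at least 10 reads and 4.69 without ratios above 1. That of ZNF731P (7.004) was 20.001 with the most used introns, 17.1 as an unweighted mean and 12.3 over every row. Settings that merge introns within 12 nt or keep introns read in every library were added after seeing the data.

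Leaving out 1 library, the gene sums ranged from 22.1 to 24.0 points for APEX1, 25.2 to 41.1 for LZTR1, 40.7 to 52.9 for PLAA, 42.5 to 54.5 for ITGB1BP1, 0.297 to 6.37 for CHD2, -4.17 to 18.6 for ATAD2, 6.48 to 14.6 for HELZ and -11.4 to 25.4 for ZNF731P. The named introns ranged from 30.1 to 50.9 points (CHD2), 41.4 to 56.8 (ATAD2), 18.2 to 41.7 (HELZ) and 52.1 to 60.8 (ZNF731P). Log2 coverage ratios ranged from 0.13 to 0.43 (APEX1), -1.36 to -0.57 (LZTR1), 0.47 to 2.16 (PLAA), 0.019 to 1.66 (ITGB1BP1), -0.62 to 0.72 (CHD2), 0.64 to 1.02 (ATAD2), -0.086 to 1.03 (HELZ) and 0.55 to 0.69 (ZNF731P). CHD2 coverage turned to 0.72 when WT replicate 1 was left out and to 0.099 without K700E replicate 1, and HELZ coverage to -0.086 without K700E replicate 2. With TMM and DESeq2 size factors the ratio was -0.023 and 0.032 for APEX1, 0.51 and 0.56 for ATAD2, and 0.34 and 0.39 for ZNF731P.

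Over all introns 5 were called in either direction, against 2 with an estimated dispersion, 0 in DESeq2, 3 with the replicate block and 0 to 12 without 1 library. Genes called numbered 0, against 1 in DESeq2 (lower), 1 with the most used introns (higher), 0 with the replicate block and 0 to 0 without 1 library; 170 had an unadjusted p below 0.05. The share of introns higher in both K700E libraries was 8.33% with the most used introns. Replicate numbers in the titles, which the block uses, did not pair the libraries (correlation of same-numbered deviations -0.166), and names inside the K700E tables number replicates 1 and 2 as 2 and 3, and the crossed block, added after seeing the data, called 5 introns and 0 genes. TMM was not run for calls, since a coefficient per library absorbs scaling. The cause of these shifts was not tested. Depth limits the values: in the 4 genes chosen by their sum no intron had 10 reads in every library.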
